A study of Neotoma stephensi and Rattus norvegicus with 6 samples.

Results

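The transcripts described here encode the enzymes that oxidize, reduce or hydrolyze aldehydes, alcohols, carbonyls, quinones, epoxides and esters. They were chosen by gene symbol alone, as every symbol starting with Aldh, Ephx, Nqo, Rdh or Dhrs, or with Adh, Akr, Cbr, Ces or Fmo followed by a digit, which gave 92 of the 15481 genes in the read count files. PolyA RNA from the fornix ventricularis of the stomach, the nonglandular foregut chamber, was sequenced from 3 Stephens' woodrats (Neotoma stephensi) and 3 Sprague Dawley lab rats (Rattus norvegicus), all female. The comparison sets a plant-eating species whose foregut holds many microbes beside an omnivore whose foregut does not. The woodrats were wild-caught and fed juniper foliage, whereas the lab rats were purchased from a breeder and fed standard chow for months in a room that also housed woodrats. The labels call every animal a virgin female, but the methods leave this open for the woodrats. Species, diet, origin and the distance of each genome from the mouse transcripts to which all reads were aligned cannot be told apart in this design.

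Toxic aldehydes, ketones and epoxides arise in food plants, from microbes and from the animal's own lipids. Alcohol dehydrogenases (Adh) turn alcohols into aldehydes, and aldehyde dehydrogenases (Aldh) turn aldehydes into acids. Aldo-keto reductases (Akr), carbonyl reductases (Cbr) and many short-chain dehydrogenases (Dhrs, Rdh) work in the other direction and reduce carbonyl groups, and the quinone reductases (Nqo) do the same for quinones. Carboxylesterases (Ces) split esters, epoxide hydrolases (Ephx) open epoxides into diols, and flavin-containing monooxygenases (Fmo) add oxygen to nitrogen and sulfur atoms of plant alkaloids and drugs. Some of the same enzymes convert vitamin A (retinol) to retinaldehyde and retinoic acid, a signal that controls the keratinization of squamous epithelia such as the rodent foregut lining.

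Each library held between 5439642 and 7932637 counted reads. Abundances are given as CPM (counts scaled to library size with TMM factors), and 3 counts corresponded to between 0.355 and 0.586 CPM. Every gene in the tables had woodrat reads, whereas 809 had none from lab rats, so an enzyme read in lab rats alone is not analysed here. The tissue label was held against marker genes. All 8 squamous epithelial markers (such as Krt5 and Dsp) had reads in every animal, with summed levels of 1299, 2877 and 6345 CPM in woodrats 1, 2 and 3 and between 3577 and 4456 CPM in the lab rats, and 1 of them, the cornified envelope gene Ivl, fell in woodrats. The summed level of 7 smooth muscle markers was 112060, 55435 and 35165 CPM in the woodrats and 9363 to 16684 CPM in the lab rats, and 3 of the 7 rose. Woodrat 1 had the lowest summed squamous markers and the highest summed muscle markers. Dsp weighed much in the squamous sum, at 419, 1168 and 3500 CPM in woodrats 1, 2 and 3. Ivl ran the other way among the woodrats, at 11.3, 8.61 and 7.82 CPM. Krt14 in woodrat 1 (509 CPM) was above lab rats 1 and 2 (338 and 336 CPM). The 8 gastric gland markers summed to between 7.32 and 12.9 CPM. Much of this was the parietal cell gene Atp4a, which had reads in every animal (5.69 to 9.76 CPM). Chga also had reads in every animal, Gkn2 had 9 reads in woodrat 1, and Muc5ac had reads in woodrats alone. The other gastric gland genes, Pgc, Muc6, Tff2 and Gkn1, had at most 1 read in any animal. The 6 leukocyte markers summed to between 12.5 and 36.7 CPM in woodrats and between 173 and 287 CPM in lab rats. Most of the lab rat sum was Cd74, at 225, 154 and 270 CPM. Of 4 tested leukocyte markers 3 fell (Ptprc, Cd74 and Itgam), whereas Cd68 overlapped between the species. The untested Cd79a lay the other way, with 19 reads in woodrats and 2 in lab rats. Of the fibroblast, adipocyte, mesothelial and hepatocyte markers, 1 of 5, 0 of 1, 0 of 1 and 0 of 3 tested genes passed the test (edgeR), the 1 being Dcn, which fell. The part of these tissue differences in the results that follow was not tested. In tissue samples, fewer cells of a type and less RNA per cell cannot be told apart.

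Of the 92 enzymes, 75 reached 1 CPM in at least 3 animals and were tested, and 23 of them differed between the species at an FDR below 0.01 (edgeR quasi-likelihood test, adjusted over all 12603 tested genes). The called share was 30.7% of the tested enzymes, against 20.0% of all tested genes. The counts given below for single families rest on 2 to 17 tested genes each and are to be read beside that 20.0%. In woodrats 9 of the 75 rose and 14 of the 75 fell, against 10.3% and 9.71% of all tested genes in those directions. The rises were in the epoxide hydrolases Ephx1 and Ephx2, the monooxygenases Fmo2 and Fmo4, 3 Akr1c reductases, Aldh1l2 and Dhrs11, and the falls included the alcohol dehydrogenases Adh1 and Adh6a, the carboxylesterase Ces3b, the carbonyl reductases Cbr1, Cbr3 and Cbr4, the quinone reductase Nqo1 and the retinoid enzymes Aldh1a2 and Rdh10. The median log2 fold change (woodrat over lab rat) was -0.30 over the 75 enzymes and 0.03 over all tested genes, and the median size regardless of sign was 1.14 against 0.82. The animals of the 2 species did not overlap for 43 of the 75 enzymes, or 16 higher and 27 lower in woodrats, against 56.2% of all tested genes. DESeq2 called 32 of the 75 enzymes, against 3916 of 12596 genes (31.1%). A fit with the replicate number as a block called 9 of the 75, against 716 of 12603 genes (5.68%). When each animal was left out in turn, 8 of the 23 stayed below an FDR of 0.01 in all 6 fits, namely Adh1, Adh6a, Akr1c19, Aldh1a2, Ces3b, Ephx1, Ephx2 and Fmo4.

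**Figure D1:**
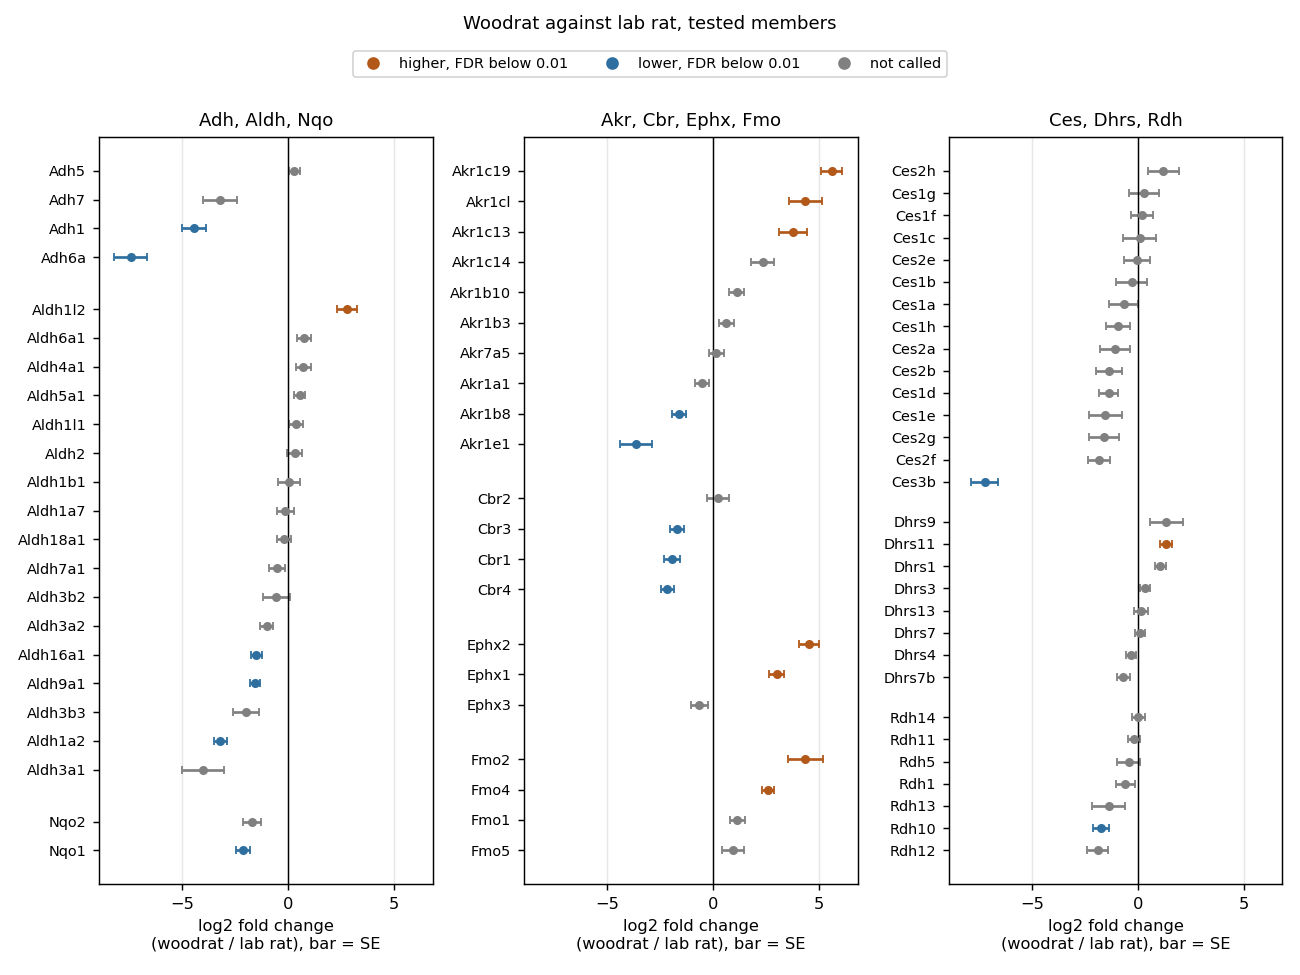
Log2 fold change (x axis, woodrat over lab rat) of 74 of the 75 tested enzymes, grouped by family, with points for the fitted value and bars for 1 standard error; orange marks called higher, blue called lower and grey not called. Called enzymes lie between -7.44 for Adh6a and 5.61 for Akr1c19, the carbonyl reductases Cbr1, Cbr3 and Cbr4 lie on the lab rat side, and the 4 tested Akr1c and Akr1cl genes lie on the woodrat side.

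**Figure D2:**
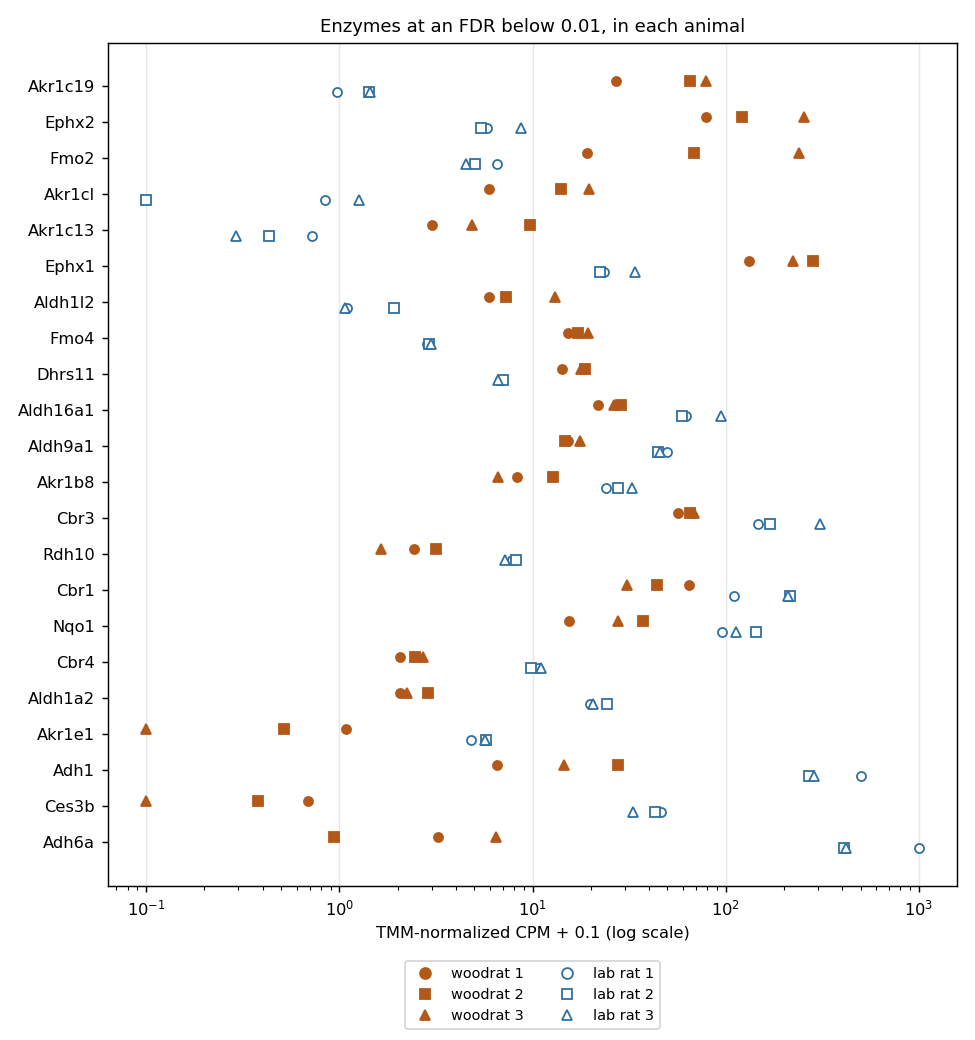
TMM-normalized CPM plus 0.1 (x axis, log scale) of 22 of the 23 called enzymes in each of the 3 woodrats (filled) and 3 lab rats (open), ordered by log2 fold change. No enzyme shown has overlapping species, and points at 0.1 are animals with 0 reads.

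Of 4 tested alcohol dehydrogenases, 2 fell in woodrats and 0 rose (edgeR, with 0 higher at an unadjusted p below 0.05, and 0 by DESeq2). Adh6a (ENSMUSG00000053054.12), an alcohol dehydrogenase whose natural substrates are poorly known, was at 3.12, 0.83 and 6.40 CPM in woodrats 1, 2 and 3 and at 1001, 408 and 419 CPM in lab rats 1, 2 and 3. Every lab rat was far above every woodrat, with a log2 fold change of -7.44 (SE 0.78, FDR = 0.000626), which is 173-fold. Adh1 (ENSMUSG00000074207.9), the classical ethanol and retinol dehydrogenase, was at 6.45, 27.6 and 14.5 CPM in woodrats and at 505, 269 and 288 CPM in lab rats. This was a log2 fold change of -4.44 (SE 0.56, FDR = 0.00103), or 21.7-fold, and the calls of both genes were kept whichever animal was left out.

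Adh7, an alcohol dehydrogenase of upper digestive tract epithelium that acts on ethanol and retinol, was at 1.56, 20.0 and 35.4 CPM in woodrats and at 198, 205 and 132 CPM in lab rats. The woodrats varied widely, and although the species did not overlap the gene missed the threshold (log2 fold change -3.21, SE 0.79, FDR = 0.0138). Without woodrat 1, the animal with the lowest summed squamous markers, its FDR was 0.00228 at a log2 fold change of -2.68. The FDR was 0.0061 without woodrat 3. It stayed above 0.01 in the other fits that left out 1 animal, up to 0.0467 without woodrat 2. Adh5, which clears formaldehyde bound to glutathione and is used by nearly every cell, was at 134, 116 and 94.9 CPM in woodrats and at 77.3, 87.7 and 117 CPM in lab rats. These values overlapped (log2 fold change 0.29, FDR = 0.396). Summed over the family, alcohol dehydrogenase reads were 154 ± 9.8 CPM in woodrats against 1236 ± 473 CPM in lab rats (SD, n = 3 each).

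Of 17 tested aldehyde dehydrogenases, 1 rose, 3 fell and 13 did not pass the test. The called share of 23.5% was near the 20.0% of all tested genes. Aldh2, the mitochondrial enzyme that clears acetaldehyde, was at 482, 781 and 481 CPM in woodrats and at 324, 439 and 634 CPM in lab rats, overlapping values with a log2 fold change of 0.32 (SE 0.35, FDR = 0.491). Aldh1a7, a rodent copy of the retinaldehyde dehydrogenase Aldh1a1, was at 160, 472 and 427 CPM in woodrats and between 377 and 397 CPM in lab rats (FDR = 0.81). Reads of such a pair may be shared between its copies by the alignment, and Aldh1a1 is not analysed here.

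Aldh3a1, which removes lipid peroxidation aldehydes and is a major protein of the cornea, was at 0.59, 37.6 and 26.5 CPM in woodrats and at 222, 352 and 479 CPM in lab rats. The species were fully separated, with a log2 fold change of -4.01 (SE 0.98, FDR = 0.0131) that missed the threshold. Woodrat 1 was again the low animal, and without it the log2 fold change was -3.45 with an FDR of 0.00165. No other fit that left out 1 animal passed the threshold, and without lab rat 3 the FDR was 0.0489. The fatty aldehyde dehydrogenase Aldh3a2, whose loss causes the scaly skin of Sjögren-Larsson syndrome, was at 19.3, 18.5 and 25.6 CPM in woodrats and at 55.0, 44.3 and 28.5 CPM in lab rats (log2 fold change -1.01, FDR = 0.0287). Its close relatives Aldh3b2 and Aldh3b3 had log2 fold changes of -0.55 and -1.99 (FDR = 0.508 and 0.0328). Without woodrat 1 the FDR of Aldh3b3 was 0.00676 at a log2 fold change of -1.50. Among the fits that left out 1 animal, Aldh3b3 passed the threshold in this one only.

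Among the aldehyde dehydrogenases of intermediary metabolism, Aldh9a1, which takes part in carnitine synthesis, fell from 46.5 ± 2.8 CPM (SD, n = 3) in lab rats to 15.8 ± 1.6 CPM (SD, n = 3) in woodrats (log2 fold change -1.56, SE 0.23, FDR = 0.00182). Aldh16a1, a family member with no clear catalytic role, fell from 72.1 ± 19.7 to 25.5 ± 3.5 CPM (log2 fold change -1.50, FDR = 0.00389). Aldh1l2, the mitochondrial 10-formyltetrahydrofolate dehydrogenase of the folate cycle, rose in woodrats, with 5.86, 7.22 and 13.0 CPM against 0.99, 1.82 and 0.96 CPM (log2 fold change 2.79, SE 0.48, FDR = 0.0033). Its cytosolic counterpart Aldh1l1 overlapped between the species (log2 fold change 0.37, FDR = 0.387). The enzymes of proline, succinate semialdehyde and valine breakdown, Aldh4a1, Aldh5a1 and Aldh6a1, had log2 fold changes of 0.73, 0.54 and 0.76, with every woodrat above every lab rat and FDR values from 0.0868 to 0.145. The call of Aldh9a1 was lost without lab rat 1 or woodrat 2, that of Aldh16a1 without lab rat 1, lab rat 2, woodrat 1 or woodrat 2, and that of Aldh1l2 without lab rat 1, lab rat 3 or woodrat 2, with FDR values up to 0.0169.

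Retinoid-handling enzymes were called about as often as genes in general. Counted over Aldh1a, Rdh, Dhrs3, Dhrs9 and the retinol-oxidizing Adh genes, a grouping made after the values were seen, 13 of 17 were tested, of which 0 rose and 3 fell by the edgeR test (Adh1, Aldh1a2 and Rdh10). The called share was close to the 20.0% of all tested genes, of which 10.3% rose and 9.71% fell, and nothing is read from so few. The median log2 fold change of the 13 was -0.60, 10 were negative, and 0 were higher at an unadjusted p below 0.05 or by DESeq2. The grouping leaves out Akr1b8 and Akr1b10, which also reduce retinaldehyde. By edgeR, Akr1b10 was higher in woodrats at an unadjusted p of 0.0125 and Akr1b8 lower at 0.000901. Aldh1a2 (ENSMUSG00000013584.5), which makes retinoic acid from retinaldehyde, was at 1.95, 2.78 and 2.13 CPM in woodrats and at 19.7, 24.1 and 20.4 CPM in lab rats. Both species were tight and well apart, with a log2 fold change of -3.21 (SE 0.31, FDR = 0.000485) that held in every fit with an animal left out. Rdh10, the retinol dehydrogenase that feeds it, was at 2.34, 3.05 and 1.54 CPM in woodrats and at 7.69, 8.10 and 7.13 CPM in lab rats. This was a log2 fold change of -1.73 (SE 0.38, FDR = 0.00833), although each fit that left out 1 animal raised the FDR, to between 0.0178 and 0.0326.

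Rdh12, which reduces retinaldehyde and lipid aldehydes, was at 11.9, 37.3 and 60.2 CPM in woodrats and at 120, 137 and 156 CPM in lab rats, apart but not called (log2 fold change -1.91, SE 0.50, FDR = 0.0168). Its FDR was 0.00842 without woodrat 1, at a log2 fold change of -1.50, and 0.00455 without woodrat 3, at -2.47. The other fits that left out 1 animal did not pass the threshold, with an FDR up to 0.058 without lab rat 3. The retinaldehyde reductase Dhrs3, a gene induced by retinoic acid, overlapped between the species at 78.1 ± 10.6 and 61.6 ± 14.4 CPM (SD, n = 3; FDR = 0.301). Rdh11 and Rdh14 had log2 fold changes of -0.18 and 0.01. Dhrs9 was at 5.86, 10.7 and 48.3 CPM in woodrats, where woodrat 3 alone was high, and at 13.9, 8.44 and 3.27 CPM in lab rats (FDR = 0.203).

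The other genes of the retinoid pathway were taken from a list of 25, of which 20 were tested, 1 rose and 7 fell at an FDR below 0.01 (against 20.0% called, 10.3% higher and 9.71% lower, over all tested genes), with a median log2 fold change of -0.77. Several of those that fell bind retinoids. Rbp7, a cellular retinol-binding protein, had 2 reads in the 3 woodrats together and 4287 in the lab rats, a ratio of 2307 (95% exact interval 638 to 19050, counting error only). Rbp2, Rbp4, Crabp2, Retsat and Sdr16c6 were also among those that fell. Stra6, the membrane receptor for plasma retinol-binding protein, was the gene that rose, with 70 reads in woodrats and 1 in lab rats (ratio 65.0, 95% exact interval 11.3 to 2606), and its call was lost when any 1 of the lab rats was left out (FDR up to 0.0113). Sdr16c6 likewise lost its call when any 1 of the lab rats was left out, at FDR values up to 0.0142. The retinoic acid receptors Rara, Rarb and Rarg had log2 fold changes between -0.61 and 0.13 and were not called.

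**Figure D3:**
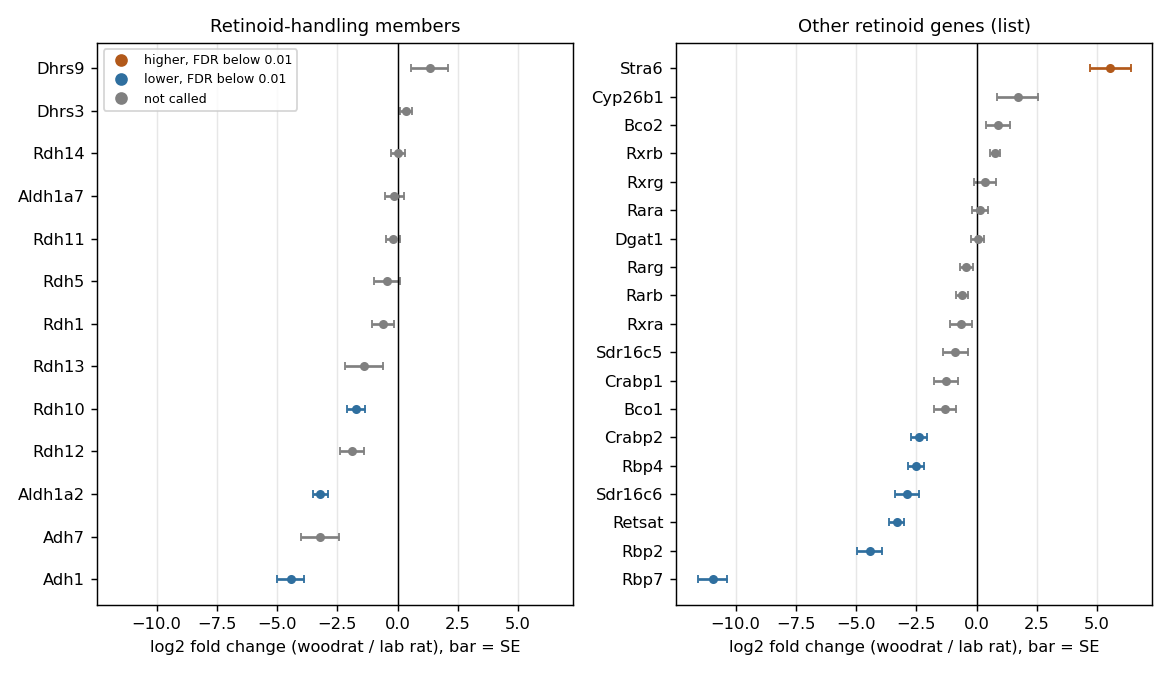
Log2 fold change (x axis, woodrat over lab rat, bars 1 standard error) of the 13 tested retinoid-handling enzymes (left) and of 19 of the 20 tested genes of the retinoid list (right). Adh1, Aldh1a2 and Rdh10 on the left and 6 genes on the right are called on the lab rat side, and Stra6 at 5.56 is the called gene on the woodrat side.

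Of 8 tested Dhrs genes 1 was called. Dhrs11, a reductase of steroids and carbonyls, rose in woodrats, at 14.1, 18.6 and 17.8 CPM against 6.70, 6.95 and 6.55 CPM (log2 fold change 1.32, SE 0.28, FDR = 0.00712). The species were separated and the lab rats almost identical, but the call was lost in 5 of the 6 fits that left out 1 animal (all but the fit without woodrat 1), with FDR values up to 0.0387. Dhrs1 was at 72.8 ± 20.8 CPM in woodrats and at 34.9 ± 4.3 CPM in lab rats (SD, n = 3; log2 fold change 1.06, FDR = 0.0159). Dhrs4, Dhrs7 and Dhrs13 overlapped between the species, with log2 fold changes between -0.31 and 0.15.

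Of 10 tested aldo-keto reductases 3 rose, all in the Akr1c group, and 2 fell. Akr1b7 is not analysed here and is not part of this count. The Akr1c genes encode reductases of steroids, prostaglandins and foreign ketones. Akr1c19 (ENSMUSG00000071551.11) was at 27.0, 65.2 and 79.4 CPM in woodrats and at 0.87, 1.32 and 1.35 CPM in lab rats. The gap was 48.7-fold (log2 fold change 5.61, SE 0.51, FDR = 0.000343), and the call was kept whichever animal was left out. Akr1cl (log2 fold change 4.36, FDR = 0.00376) and Akr1c13 (3.78, FDR = 0.0032) also rose, and Akr1c14 had a log2 fold change of 2.34 with an FDR of 0.0114. The call of Akr1cl was lost without lab rat 1, lab rat 3 or woodrat 2, and that of Akr1c13 when any 1 of the lab rats or woodrat 2 was left out, with FDR values up to 0.0169.

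The low Akr1c genes gave the same contrast in raw reads. Akr1c20 had 3, 65 and 123 reads in woodrats and 0 in every lab rat, which is at least 16.7-fold higher when 3 counts per lab rat library are taken as the floor, and Akr1c6 had 5, 63 and 178 reads against 2, 2 and 1. Both reached 1 CPM in only 2 animals and were not tested. Reads of related copies can be assigned to different mouse genes in different species, so all 8 Akr1c and Akr1cl genes were also summed before the fit. How alike the 8 are was not measured, and this alternative was chosen after the data were seen. The sum was 39.4, 111 and 142 CPM in woodrats and 2.73, 2.32 and 3.47 CPM in lab rats (log2 fold change 5.10, SE 0.52, FDR = 0.00054), and the woodrats stayed apart from the lab rats.

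Akr1b8 and Akr1b10 reduce retinaldehyde and lipid aldehydes. Akr1b8 fell, at 8.20, 12.6 and 6.51 CPM in woodrats against 23.8, 27.6 and 32.6 CPM in lab rats (log2 fold change -1.62, SE 0.33, FDR = 0.00604), but its FDR was between 0.0102 and 0.0214 whenever an animal was left out. Akr1b10 was at 119, 164 and 61.5 CPM in woodrats and at 43.8, 58.6 and 55.9 CPM in lab rats (log2 fold change 1.12, FDR = 0.0356). Its FDR was 0.00484 without woodrat 3 and 0.164 without woodrat 2. Summed as related copies, Akr1b8 and Akr1b10 were at 124 ± 54.5 and 80.8 ± 11.4 CPM (SD, n = 3), with a log2 fold change of 0.62 and an FDR of 0.187. Aldose reductase, Akr1b3, overlapped between the species (log2 fold change 0.63, FDR = 0.196). Akr1e1, a reductase of 1,5-anhydrofructose from glycogen breakdown, had 5, 3 and 0 reads in woodrats and 38, 34 and 29 reads in lab rats (log2 fold change -3.64, SE 0.75, FDR = 0.00661), a call lost when any 1 of the lab rats or woodrat 2 was left out (FDR up to 0.0287). The broad aldehyde reductases Akr1a1 and Akr7a5 were at 401 ± 8.5 and 167 ± 42.8 CPM in woodrats and at 576 ± 204 and 151 ± 67.8 CPM in lab rats (SD, n = 3), with FDR values of 0.212 and 0.768.

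Of 4 tested carbonyl reductases 3 fell. Cbr1, which reduces quinones and prostaglandins, was at 64.8, 43.9 and 30.9 CPM in woodrats and at 110, 216 and 210 CPM in lab rats (log2 fold change -1.94, SE 0.37, FDR = 0.00481). Its neighbour and close copy Cbr3 was at 56.6, 65.5 and 68.6 CPM against 147, 170 and 308 CPM (log2 fold change -1.71, SE 0.32, FDR = 0.0046). Every lab rat was above every woodrat for both, and their sum gave a log2 fold change of -1.81 with an FDR of 0.0032. Cbr4, a mitochondrial reductase of fatty acid synthesis and quinones, was at 2.31 ± 0.33 CPM in woodrats and at 10.4 ± 0.62 CPM in lab rats (SD, n = 3; log2 fold change -2.16, SE 0.32, FDR = 0.00199). Cbr2, with 35 reads in woodrats and 27 in lab rats, overlapped. The call of Cbr1 was lost without lab rat 2, lab rat 3 or woodrat 2, that of Cbr3 without lab rat 2, woodrat 1 or woodrat 2, and that of Cbr4 without lab rat 1 or woodrat 2, at FDR values up to 0.024.

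Of the quinone reductases, Nqo1 fell and Nqo2 did not pass the test. Nqo1, the standard target gene of the antioxidant regulator Nrf2, was at 15.4, 37.3 and 27.7 CPM in woodrats and at 96.1, 144 and 113 CPM in lab rats. The species were well apart (log2 fold change -2.13, SE 0.35, FDR = 0.00275), and without lab rat 2 or lab rat 3 the FDR rose to at most 0.0118. Nqo2 was at 4.65 ± 2.39 and 15.0 ± 1.2 CPM (SD, n = 3), with a log2 fold change of -1.70 and an FDR of 0.0157.

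Of 22 tested genes on a list of the Nrf2 regulator and its targets, 0 rose and 3 fell by edgeR, with a median log2 fold change of -0.72. The called share was below the 20.0% of all tested genes, and the number that fell was close to the 9.71% of all genes that did. Only Gstm1 was higher at an unadjusted p below 0.05, and 0 rose by DESeq2. Those that fell were the glutathione transferase Gsta4, which conjugates the lipid aldehyde hydroxynonenal (log2 fold change -4.65, SE 0.67, FDR = 0.00164), the pentose phosphate enzyme Taldo1 (-1.51, SE 0.32, FDR = 0.00732) and the cystine transporter Slc7a11, which had 1 read in woodrats and 31 in lab rats (ratio 33.4, 95% exact interval 5.56 to 1360). Taldo1 lost its call whichever animal was left out (FDR up to 0.0361), and Slc7a11 when any 1 of the lab rats or woodrat 2 was left out (FDR up to 0.0144). Nfe2l2, which encodes Nrf2, was at 73.0, 155 and 176 CPM in woodrats and at 346, 326 and 339 CPM in lab rats, without passing the threshold (log2 fold change -1.32, FDR = 0.0167). Of 9 tested genes of the aryl hydrocarbon receptor pathway, which also acts on Nqo1 and Aldh3a1, 2 rose and 0 fell by edgeR (0 lower at an unadjusted p below 0.05 and 0 by DESeq2), namely Cyp1b1 (log2 fold change 5.03, SE 0.70, FDR = 0.00152) and Ugt1a6b, with 77 reads in woodrats and 3 in lab rats (ratio 23.9, 95% exact interval 7.86 to 118). The median of the 9 was -0.29, and their called share was close to the 20.0% of all tested genes. The receptor's best known target Cyp1a1, named after its values were seen, had 1 read in woodrats and 48, 16 and 5 reads in lab rats and was not tested. The call of Ugt1a6b was lost when any 1 of the lab rats or woodrat 2 was left out (FDR up to 0.0209).

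Of 3 tested epoxide hydrolases 2 rose. Ephx1 (ENSMUSG00000038776.12), the microsomal hydrolase of foreign epoxides, was at 131, 282 and 224 CPM in woodrats and at 23.3, 22.3 and 33.7 CPM in lab rats. Ephx2 (ENSMUSG00000022040.7), the soluble hydrolase of epoxy fatty acids, was at 78.7, 122 and 254 CPM in woodrats and at 5.71, 5.29 and 8.67 CPM in lab rats. The woodrats were above the lab rats throughout, with log2 fold changes of 3.01 (SE 0.35, FDR = 0.000849) and 4.54 (SE 0.49, FDR = 0.000696), or 8.04-fold and 23.2-fold. Both calls were kept in all 6 fits that left out 1 animal, and without woodrat 1 the log2 fold changes were 3.26 and 4.85. Ephx3, an epoxide hydrolase of the epidermal barrier, did not pass the test. It was at 16.8, 27.8 and 59.7 CPM in woodrats and at 60.6, 51.3 and 51.2 CPM in lab rats (log2 fold change -0.64, SE 0.42, FDR = 0.251).

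Among the flavin-containing monooxygenases, 2 of 5 tested genes rose. Fmo2, the form known from lung, was at 19.1, 68.4 and 241 CPM in woodrats and at 6.45, 4.96 and 4.43 CPM in lab rats. The woodrats differed widely among themselves but each was above every lab rat (log2 fold change 4.36, SE 0.84, FDR = 0.00493). Woodrat 3 had the highest level, and the value without it was 3.04 on the log2 scale (FDR = 0.0028), and the call was lost when any 1 of the lab rats or woodrat 2 was left out, with FDR values up to 0.0342. Fmo4 (ENSMUSG00000026692.11) was at 15.2, 17.1 and 19.2 CPM in woodrats and 2.73, 2.81 and 2.89 CPM in lab rats. The animals were even within each species, and the log2 fold change of 2.61 (SE 0.30, FDR = 0.00081) was called in every such fit. Fmo1 and Fmo5 had log2 fold changes of 1.14 and 0.95 (FDR = 0.0309 and 0.176).

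The carboxylesterases, which hydrolyze ester drugs, plant esters and triglycerides, held 1 called gene among 15 tested. Ces3b (ENSMUSG00000062181.13), known as a liver esterase, had 3, 2 and 0 reads in woodrats and 370, 260 and 171 reads in lab rats, or 0.29 ± 0.29 and 40.6 ± 6.8 CPM (SD, n = 3). This gave a log2 fold change of -7.25 (SE 0.62, FDR = 0.000275), which was called in all 6 fits that left out 1 animal. None of the 8 tested Ces1 or 6 tested Ces2 genes was called by edgeR, although 1 of each (Ces1d and Ces2f) was lower at an unadjusted p below 0.05 and by DESeq2, and their median log2 fold changes were -0.49 and -1.23. Ces2f, a member of the intestinal esterase group, was at 7.81, 41.8 and 41.6 CPM in woodrats and at 96.9, 103 and 130 CPM in lab rats (log2 fold change -1.85, FDR = 0.0247). Without woodrat 1 its FDR was 0.00634 at a log2 fold change of -1.40. No other fit that left out 1 animal passed the threshold, and without lab rat 3 the FDR was 0.0823.

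Mouse Ces1 and Ces2 genes are close copies, so their reads were also summed. The Ces2 sum was 12.3, 94.8 and 97.6 CPM in woodrats and 177, 174 and 211 CPM in lab rats (log2 fold change -1.45, SE 0.62, FDR = 0.0906). The Ces1 sum was 15.2, 82.4 and 99.6 CPM against 78.3, 84.5 and 200.1 CPM, and the species overlapped (log2 fold change -0.87, FDR = 0.296). Woodrat 1 was the lowest animal in both sums, as it was in the sum of the squamous markers though not in each of them. The part of its tissue makeup in these values was not tested.

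A list of 30 other enzymes for the same substrates gave 27 tested genes, of which 6 rose and 7 fell (against 10.3% and 9.71% of all tested genes), with a median log2 fold change of 0.67. Aox1, the liver-type enzyme, was at 231, 260 and 178 CPM in woodrats and at 9.18, 8.10 and 10.8 CPM in lab rats (log2 fold change 4.57, SE 0.29, FDR = 0.000105). Aox4, which oxidizes retinaldehyde in skin glands, was at 10.7, 18.5 and 55.7 CPM in woodrats and at 1349, 1303 and 839 CPM in lab rats (log2 fold change -5.35, SE 0.66, FDR = 0.00101). Among the esterases of the list, butyrylcholinesterase Bche had a log2 fold change of 3.89 (SE 0.31, FDR = 0.000229) and the deacetylase Aadac one of -7.24 (SE 0.57, FDR = 0.000216). These 4 genes kept their calls whichever animal was left out.

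**Figure D4:**
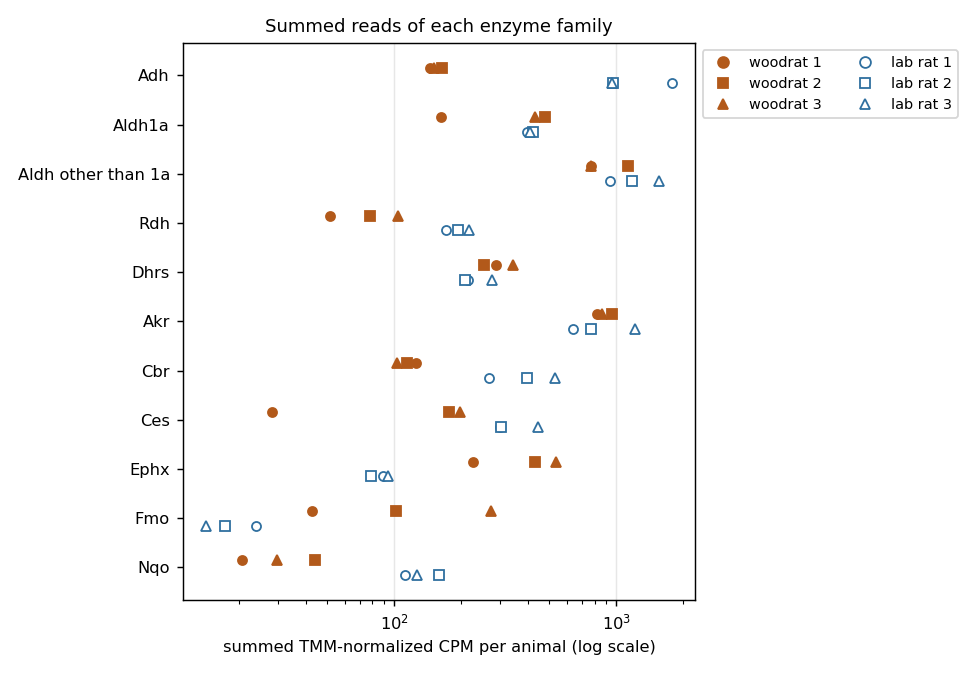
Summed TMM-normalized CPM (x axis, log scale) of the members of each family in every animal, with woodrats filled and lab rats open. The woodrats lie apart and higher for Ephx and Fmo, apart and lower for Adh, Rdh, Cbr, Ces and Nqo, and overlap the lab rats for Aldh1a, the other Aldh, Dhrs and Akr.

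The family sums are descriptions without a test. Epoxide hydrolase reads were 399 ± 158 CPM in woodrats against 87.6 ± 7.8 CPM in lab rats (SD, n = 3), and monooxygenase reads were 139 ± 120 and 18.5 ± 5.0 CPM. Carbonyl reductase reads were 114 ± 10.95 and 399 ± 131 CPM, and esterase reads were 134 ± 92.5 and 349 ± 82.3 CPM. Aldo-keto reductase reads, which do not include Akr1b7, were at 881 ± 70.2 and 875 ± 299 CPM and overlapped.

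Over the 75 tested enzymes the median coefficient of variation was 45.0% in woodrats and 24.2% in lab rats, against 26.3% and 26.6% over all tested genes. Woodrat 1 was the lowest of the 3 woodrats for 49 of the 75 enzymes and the highest for 14. In the lab rats, animal 3 was the highest for 41 of the 75. These ranks were not counted over all tested genes, so nothing particular to the enzymes is read from them. Without woodrat 1, 23 enzymes were again called (14.9% of all tested genes were called in that fit), of which 18 were among the original 23 and 5 (Adh7, Aldh3a1, Aldh3b3, Ces2f and Rdh12) were added, each lower in woodrats. Among those dropping out were Akr1b8, Aldh16a1, Cbr3 and Rdh10, with FDR values from 0.0108 to 0.0185. The 5 added enzymes each had a smaller difference in that fit than over all animals, such as a log2 fold change of -1.50 against -1.91 for Rdh12.

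**Figure D5:**
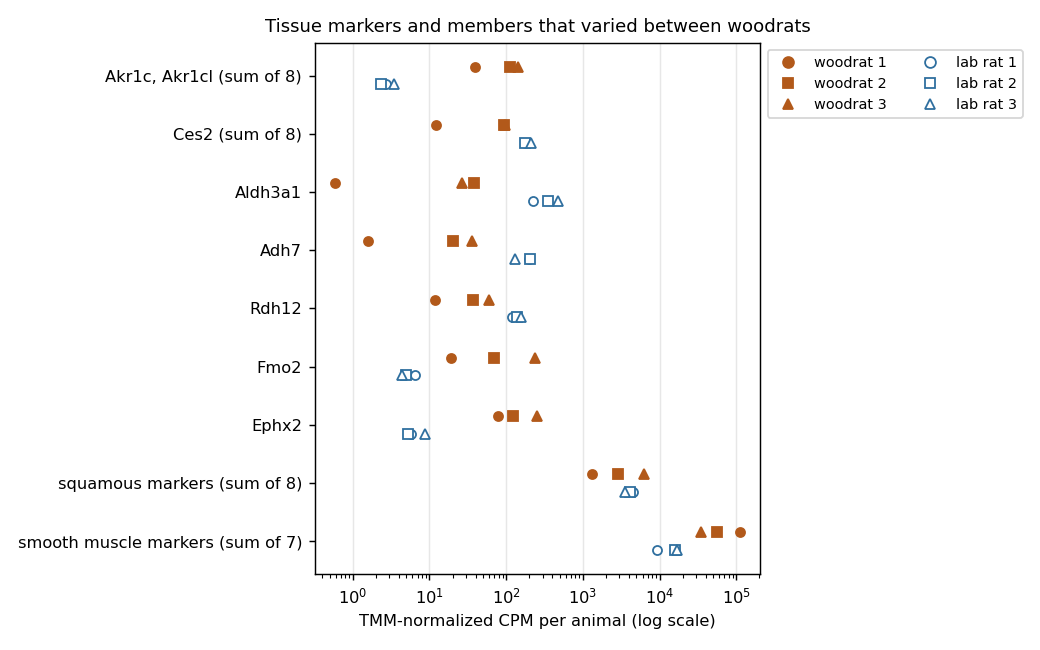
TMM-normalized CPM (x axis, log scale) in each animal of the summed smooth muscle and squamous epithelial markers and of enzymes that varied between woodrats. Woodrat 1 is the highest animal for the muscle markers at 112060 CPM and the lowest woodrat for the squamous markers and for each enzyme or sum shown. The enzymes were picked with their values known. Over all 75 tested enzymes, woodrat 1 was the lowest woodrat for 49 and the highest for 14.

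Of the 52 tested enzymes that were not called, 28 had a negative and 24 a positive log2 fold change, and 32 overlapped between the species. The 17 enzymes that were not tested were Adh4, Akr1c6, Akr1c12, Akr1c20, Akr1c21, Akr1d1, Aldh1a3, Aldh8a1, Ces2c, Ces2d-ps, Ces5a, Dhrs7c, Ephx4, Fmo6, Fmo9, Rdh7 and Rdh9. Apart from Akr1c6 and Akr1c20, none of these had more than 24 reads in the 3 animals of either species together. Of the 17, 6 had no lab rat reads. Akr1c21, with 20 reads in woodrats and 0 in lab rats, was at least 1.83-fold higher in woodrats with 3 counts per library as the floor, and Ces2d-ps, with 3 and 20 reads, was lower in woodrats by a ratio of 7.17 (95% exact interval 2.13 to 37.7, counting error only).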

How the data were processed

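Per the study's methods, stranded polyA libraries were sequenced as read pairs, which the authors trimmed (Trimmomatic), merged where they overlapped (FLASH) and matched with cross_match against coding transcripts of the mouse, GENCODE release M7. Matches were collapsed to genes, genes with many multiple matches were dropped, and the deposited values are raw counts of uniquely assigned reads per mouse gene. Tool versions are not given in the sources used here. No gene lengths were used, so levels are compared between animals and not between genes.

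The 6 tables were joined on the gene identifier (Python 3.11.15, pandas 2.3.3). In edgeR 4.0.16 under R 4.3.3, the 12603 genes reaching 1 CPM in 3 or more animals were scaled by TMM and compared between species, with no covariate, by the legacy quasi-likelihood F-test (prior count 0.125). Genes were called at an FDR of 0.01 after Benjamini-Hochberg adjustment. A filter at 5 CPM, the threshold the study names, was an alternative that left 10175 genes, and it was not shown to be the study's own filter. Standard errors are the size of the log2 fold change over the square root of F. Depth was 5439642 to 7932637 reads per animal. No pair within a species agreed within sampling noise (chi-square per degree of freedom from 10.1 to 121), and each library is labelled as a separate animal. Intervals and floors cover counting error only. Alternatives were other filters, scalings, thresholds and tests (DESeq2 1.42.0), the replicate number as a block, each animal left out, and summed paralogs, the last chosen after seeing the data. The fit was tested on simulated counts.

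The enzymes and gene lists were chosen with earlier results of these data known. Named by rule are called enzymes, those at a mean of at least 100 CPM in either species, those with 3 or fewer reads in all animals of 1 species and a mean of at least 1 CPM in the other, the most abundant of each family, and of each list the called genes or, beyond 4, the 2 largest changes in each direction. Any other gene was named after its values were seen. Results for some genes are not reported here.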

Additional observations from a re-analysis of the deposited data

How the results depend on the processing

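The 23 called enzymes kept their direction under every alternative that tested them as single genes, and 8 stayed below an FDR of 0.01 in all of these. With paralogs summed, Akr1b8, called lower, entered with Akr1b10 at a log2 fold change of 0.62 (FDR = 0.187), the opposite direction. Same-numbered animals had correlations of deviations between -0.289 and -0.0881. With 3 animals per species these values cannot settle whether the replicate numbers of the labels pair the animals. With the replicate block 9 enzymes (4 higher, 5 lower) and 716 of all genes were called. That fit had 0 and 1 gene higher on the retinoid and aryl hydrocarbon receptor lists and 1 and 4 genes lower on the Nrf2 and other-enzyme lists. DESeq2 called 22 enzymes lower and 3916 genes in all, with 7 genes lower on the Nrf2 list and 10 higher on the list of other enzymes. An FDR below 0.05 called 35 enzymes (22 lower) and 5026 genes. The filter at 5 CPM left 0 genes higher on the retinoid list and 1 on the aryl hydrocarbon receptor list, and no filter gave 1 lower on the latter. Leaving out each animal gave 9 to 23 called enzymes (4 to 9 higher, 5 to 14 lower) and 898 to 2626 genes, fewest without woodrat 2. On the lists it gave 0 to 1 (retinoid, higher), 0 to 1 (Nrf2, higher), 1 to 4 (Nrf2, lower), 1 to 2 (aryl hydrocarbon receptor, higher) and 3 to 6 (other enzymes, lower). Among the uncalled enzymes named by rule, values changed sign for Akr7a5 without woodrat 2 (-0.093) or lab rat 1 (-0.084). Its range over the animals left out was -0.093 to 0.568. Aldh1a7 changed sign without woodrat 1 (0.215), within -0.445 to 0.215. Other uncalled enzymes crossed 0 as well, such as Dhrs9 (-0.053 to 1.88) and Rdh11 (-0.398 to 0.0225). Total counts as the only scaling kept 18 of the 23 calls. The cause of these changes was not tested. Depth limits enzymes below about 1 CPM.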
